A study of Mus musculus with 10 samples.

Results

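Cyclic nucleotide phosphodiesterases were followed across the nuclei of the mouse paraventricular thalamus (PVT), a midline nucleus of the dorsal thalamus, and of the regions that a tissue punch of it also takes in. The 9 genes are *Pde1a*, *Pde1c*, *Pde2a*, *Pde3a*, *Pde4b*, *Pde4d*, *Pde7b*, *Pde8b* and *Pde10a*. They were chosen by name, and all 9 were found among the 33502 gene symbols of the deposited count matrix. Nuclei came from fresh PVT punches of C57BL/6J mice aged 12 weeks, with mice pooled for each sample according to the methods and no treatment or genetic change in any group. Of the 10 libraries, 6 are labelled female and 4 are labelled only as biological replicates; the deposited metadata list those 4 as male, and they are called male here.

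Phosphodiesterases hydrolyse the second messengers cAMP and cGMP, and so limit how long and how far a signal from a G protein-coupled receptor or from nitric oxide spreads inside a cell. The families differ in which nucleotide they take and in how they are controlled. Members of the PDE1 family act on both nucleotides and are switched on by calcium and calmodulin. PDE2A is stimulated by cGMP, PDE3A is inhibited by it, and PDE10A acts on both nucleotides and is best known from striatal projection neurons. The PDE4, PDE7 and PDE8 families prefer cAMP, and PDE4 enzymes are the targets of rolipram. Neurons of the PVT receive many peptide and monoamine inputs that act through cAMP.

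The genes share a catalytic core, which is shown here for 3 pairs of members because the pairs are alike in sequence and, in the results that follow, differ in the cells that carry them. Each line is a stretch of 60 coding bases from 1 exon, read from GENCODE vM21 transcripts on GRCm38/mm10, 5′ to 3′ on the coding strand. The capitals mark the codons of the metal-binding histidine and aspartate, of the next histidine, and of the asparagine that follows it in these members. *Pde7b*, whose window is not shown, has a glutamine codon in its place. *Pde1a* is from chr2:79887846-79887905 (minus strand), *Pde1c* from chr6:56158932-56158991 (minus), *Pde2a* from chr7:101508467-101508526 (plus), *Pde10a* from chr17:8967434-8967493 (plus), *Pde4b* from chr4:102599679-102599738 (plus) and *Pde4d* from chr13:109939298-109939357 (plus).
Pde1a: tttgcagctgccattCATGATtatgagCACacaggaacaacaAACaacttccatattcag
Pde1c: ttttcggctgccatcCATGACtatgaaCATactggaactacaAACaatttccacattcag
Pde2a: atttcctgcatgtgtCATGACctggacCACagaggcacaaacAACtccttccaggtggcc
Pde10a: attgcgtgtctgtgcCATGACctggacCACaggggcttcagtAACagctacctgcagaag
Pde4b: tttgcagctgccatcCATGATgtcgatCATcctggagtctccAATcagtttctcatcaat
Pde4d: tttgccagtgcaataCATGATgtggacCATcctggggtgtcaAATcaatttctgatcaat
*Pde1a* and *Pde1c* had the same base at 50 of the 60 positions, *Pde4b* and *Pde4d* at 48, and *Pde2a* and *Pde10a* at 40. The least alike of all pairs was *Pde2a* with *Pde4b*, at 22 positions.

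The genes span from 91.1 kb (*Pde2a*, chr7:101421691-101512827) to 1504 kb (*Pde4d*, chr13:108449948-109953461). *Pde8b* (chr13:95024454-95250336) shares its chromosome with *Pde4d*. *Pde1c* (chr6:56069804-56569103) shares its chromosome with *Pde3a* (chr6:141249269-141507448). The others are *Pde1a* (chr2:79834453-80129458), *Pde4b* (chr4:102087543-102607259), *Pde7b* (chr10:20398004-20725078) and *Pde10a* (chr17:8525372-8986648). Genes on the opposite strand that are also in the matrix overlap *Pde3a* (*Gm28523*), *Pde8b* (*Gm48420* and *Gm16243*) and *Pde10a* (*Gm17087*); the use of strand in counting is not stated, so counts of such pairs are uncertain.

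A unique molecular identifier (UMI) marks 1 captured RNA molecule, and a level below is given in CPM, the UMIs of a gene summed over the nuclei of a class in 1 library and scaled to the total of that sum times its TMM factor, a correction for composition. Relative to total UMIs alone, the median level was raised 1.30 times in neurons and lowered to 0.812 times in fibroblasts, with the other types between, and lay between 0.949 and 1.08 times for neuron groups and PVT subtypes. On total UMIs alone 18 of 252 pairs of cell types, 1 of 90 pairs of neuron groups and 3 of 90 pairs of PVT subtypes changed between overlapping and apart. Levels of single clusters and of nuclei split by single markers are on total UMIs alone. The matrix held 20503 nuclei, from 875 to 7213 nuclei and 7568267 to 55956635 UMIs in a male library and from 1049 to 1615 nuclei and 5119927 to 12891409 UMIs in a female one, and 46 of 20457 distinct barcode sequences occurred in more than 1 library. Cell types are the authors' deposited names, and all 24 fixed type markers were highest in their own type. Neurons with more than 1000 genes were clustered anew without any *Pde* gene and named from fixed markers as PVT-like (5891 nuclei), mediodorsal thalamus-like (MD, 1862), like the bed nucleus of the stria terminalis in its posterior, principal part (BSTpr, 918), habenula-like (Hb, 883) and intermediodorsal thalamus-like (IMD, 753). The PVT-like neurons were split in the same way into groups like the study's PVT1 (2501 nuclei), PVT2 (677), PVT3 (945), PVT4 (767) and PVT5 (950), with 51 left unnamed. Markers were highest in their own class for 25 of 26 regional genes, the exception being *Glra2*, and for 27 of 27 subtype genes. The same markers gave the names, so this is no independent check. Some margins of PVT1 over the next subtype were slight, such as 28.5 against 23.9 CPM for *Esr1* and 25.7 against 24.7 CPM for *Hoga1*. The MD name was weak for 1 of its 2 clusters. The mean log2 fold of the MD markers was 0.764 in the cluster of 919 nuclei, against 3.58 in that of 943. Among neurons with over 2000 genes, a cluster of 1305 nuclei was named IMD. Its top genes included *Rxfp1*, *Fign* and *Slc17a8*, as did those of the weaker MD cluster. These names rest on the same nuclei, and "-like" is to be read with each of them below.

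The counting of genes differed between the library sets: 1555 symbols had at least 50 UMIs in male libraries and 0 in female ones, and 509 symbols the reverse. *Pde2a* was among them, with 6956 UMIs in male and 2 in female libraries. In the annotation *Pde2a* overlaps the protein-coding gene *Gm45837* on the same strand, and *Gm45837* had 0 UMIs in male and 24 in female libraries. *Pde2a* is therefore described from the 4 male libraries alone, with folds fitted on those libraries. Counts of called members, however, include *Pde2a* tests from the same fits as the other members, which in the main fits hold all 10 libraries. The other 8 genes had from 2080 UMIs (*Pde3a*) to 287419 UMIs (*Pde4d*) over all libraries.

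By mean level across the cell types, *Pde4b* and *Pde1c* were highest in oligodendrocytes and *Pde4d* and *Pde10a* in neurons. *Pde1a* and *Pde7b* were highest in fibroblasts, and *Pde2a*, *Pde3a* and *Pde8b* in endothelial cells. These highest means were the same on total UMIs alone, but the endothelial *Pde3a* mean was raised by 1 library at 702 CPM. Each type was compared with the mean of the other types in edgeR's quasi-likelihood fit with the library as a block, and a gene was called at a Benjamini-Hochberg adjusted p under 0.05 with an absolute log2 fold change over 0.5. Of 72 tests of a member in a type, 55 were called, 27 higher and 28 lower, where over all genes 42.3% of tests were called, 21.6% higher and 20.7% lower. The replicate was the library, with fewer than 10 of them where a library held under 10 nuclei of a type. By type, oligodendrocyte precursor cells (OPCs) had 8 of 9 members called higher, where 20.1% of all genes were called higher, and microglia had 8 of 9 called lower, where 29% of all genes were.

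**Figure D1:**
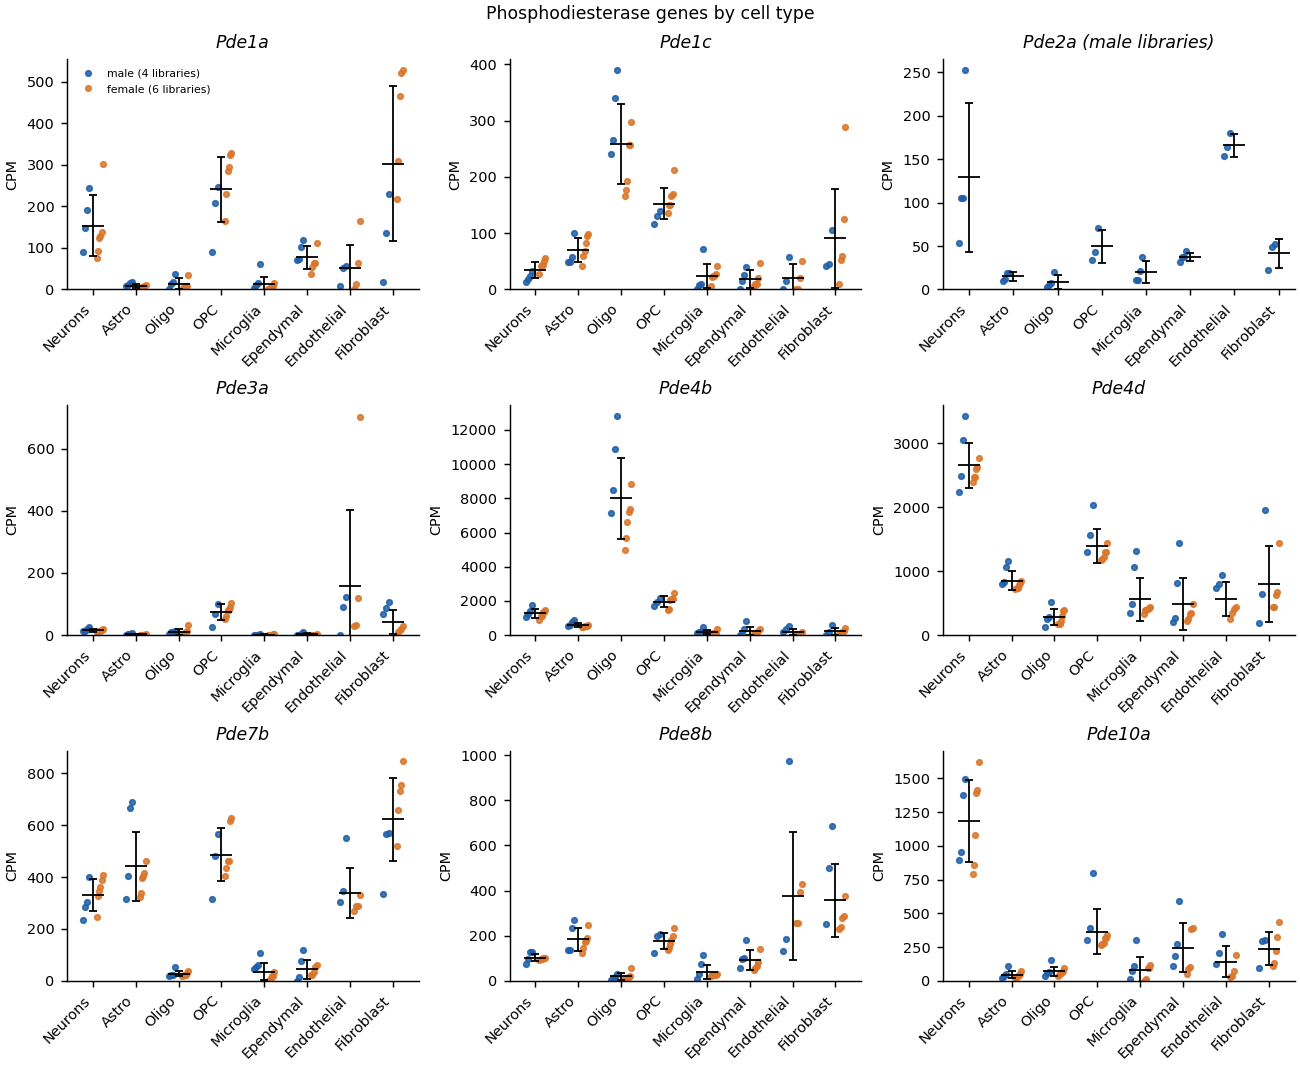
Levels of the 9 phosphodiesterase genes in the 8 deposited cell types, in CPM on linear axes that start at 0. Points are libraries (blue male, orange female), and the black bar and whiskers are the mean and SD over libraries, cut off at 0; *Pde2a* is shown for the male libraries alone. The *Pde4b* and *Pde1c* points are highest in oligodendrocytes and the *Pde4d* and *Pde10a* points in neurons.

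Of the calcium and calmodulin-dependent genes, *Pde1a* ranged in neurons from 75.3 to 303 CPM with a median of 133 CPM, in OPCs from 89.3 to 329.8 CPM with a median of 246 CPM and in fibroblasts from 17.6 to 528 CPM with a median of 269 CPM. All neuronal values lay above all astrocyte values, which reached 17.0 CPM, while neurons, OPCs and fibroblasts overlapped. The edgeR log2 fold change of *Pde1a* was 2.86 in fibroblasts (SE 0.31, n = 8, adjusted p = 2.1e-12), 2.52 in OPCs and 1.62 in neurons (SE 0.18, n = 10, adjusted p = 4.2e-13). Fibroblasts and OPCs, the first neighbours in the order of its means, did not differ beyond their spread (mean log2 difference 0.01, exact sign-flip permutation p = 0.992 over 8 libraries).

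*Pde1c* took another pattern. In oligodendrocytes, the myelin-forming cells, its level ranged from 165 to 389.7 CPM with a median of 257 CPM, and in neurons from 12.6 to 55.0 CPM with a median of 36.9 CPM. Oligodendrocytes and neurons did not overlap, and *Pde1c* was higher in oligodendrocytes than in the mean of the other types in 10 of 10 libraries. Its edgeR log2 fold change was 2.54 in oligodendrocytes (SE 0.16, adjusted p = 3.6e-24), 1.66 in OPCs and -0.86 in neurons (SE 0.18, adjusted p = 1.6e-05). Oligodendrocytes lay above OPCs in 9 of 9 libraries (exact sign-flip p = 0.0039, the smallest 9 pairs allow).

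Of the genes whose enzymes respond to cGMP, *Pde2a* had 253, 106, 105 and 53.9 CPM in the neurons of male replicates 1 to 4, and 154, 180.2 and 164 CPM in the endothelial cells of replicates 1, 3 and 4. Endothelial cells and neurons overlapped, though not on total UMIs alone, where endothelial cells ran from 179 CPM and neurons up to 175 CPM. Both lay above the 4 oligodendrocyte values, which ran from 2.94 to 20.5 CPM. In the edgeR fit of the male libraries, *Pde2a* had a log2 fold change of 2.29 in endothelial cells (SE 0.35, adjusted p = 6.8e-06) and 1.52 in neurons (SE 0.21, adjusted p = 1.6e-07).

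*Pde3a*, known from blood vessels and the heart, was sparse in the brain cells. It ranged in endothelial cells from 0 to 702 CPM with a median of 89.6 CPM over 7 libraries, in OPCs from 27.5 to 104 CPM with a median of 80.2 CPM, and in neurons from 9.81 to 24.9 CPM with a median of 14.0 CPM. Every OPC value lay above every neuronal value, while the endothelial values spread over both. Within libraries, endothelial cells and OPCs did not differ beyond their spread. The mean log2 difference was -0.44, with endothelial cells higher in 3 of 6 libraries (exact sign-flip p = 0.688). The endothelial log2 fold change was 3.64 (SE 0.38, edgeR adjusted p = 6.4e-13). It was 2.65 without female replicate 6, the library at 702 CPM, and 0.55 and no longer called when only nuclei at or under 1% mitochondrial UMIs in the deposited metadata were kept, which left endothelial sums of 10 or more nuclei in 2 of the 7 libraries. In neurons it was 0.21 (adjusted p = 0.47).

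*Pde10a* was the most neuronal of the dual-substrate genes. Its neuronal level ranged from 790.0 to 1624 CPM with a median of 1226 CPM, that of OPCs from 264 to 797 CPM with a median of 318 CPM, and that of astrocytes from 18.6 to 111 CPM with a median of 42.6 CPM. In each of the 9 libraries with OPCs neurons lay above OPCs, the next type in the order (exact sign-flip p = 0.0039). Its log2 fold change was 3.27 in neurons (SE 0.16, edgeR adjusted p = 3.7e-29) and -2.22 in astrocytes.

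Among the cAMP-specific genes, *Pde4b* ranged in oligodendrocytes from 4971 to 12824 CPM with a median of 7290.0 CPM, in OPCs from 1497 to 2455 CPM with a median of 2045 CPM and in neurons from 871 to 1763 CPM with a median of 1295 CPM. No oligodendrocyte value overlapped with any other type. In the edgeR fit, the log2 fold change of *Pde4b* was 4.27 in oligodendrocytes (SE 0.16, adjusted p = 1.5e-36), 2.06 in OPCs and 1.26 in neurons. Oligodendrocytes, OPCs, neurons, astrocytes and ependymal cells each differed from the next in that order (exact sign-flip p from 0.0020 to 0.0078). After each nucleus was thinned to 2000 UMIs, which left out shallower nuclei, all 1615 remaining of 2462 oligodendrocyte nuclei held a *Pde4b* UMI, against a mean of 19.2% of the 563 remaining of 993 microglia. Without thinning the means were 98.9% and 23.3%. The log2 fold change of *Pde4b* in microglia was -2.13.

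*Pde4d*, of the same family, was ordered otherwise. It ranged in neurons from 2237 to 3434 CPM with a median of 2547 CPM, in OPCs from 1168 to 2033 CPM with a median of 1305 CPM and in oligodendrocytes from 126 to 523 CPM with a median of 271 CPM. Neurons lay above every other type without overlap, but on total UMIs alone the fibroblast values reached 2398 CPM and overlapped with neurons, which ran from 1857 to 2311 CPM. The *Pde4d* level of oligodendrocytes was the lowest of the 8 means on both scales. By edgeR, the log2 fold change of *Pde4d* was 2.15 in neurons (SE 0.14, adjusted p = 2.3e-23) and -1.56 in oligodendrocytes (SE 0.19, adjusted p = 4.2e-11).

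*Pde7b* and *Pde8b*, both of cAMP-specific families that rolipram does not block, had their lowest means in oligodendrocytes. Microglia, the next type in both orders, did not differ from oligodendrocytes beyond their spread (exact sign-flip p = 0.441 for *Pde7b* and 0.066 for *Pde8b*, over 10 libraries). *Pde7b* was highest in fibroblasts, followed by OPCs and astrocytes, and *Pde8b* in endothelial cells, followed by fibroblasts. *Pde7b* ranged from 335 to 845 CPM in fibroblasts with a median of 614 CPM, from 316 to 629 CPM in OPCs with a median of 463 CPM, from 317 to 689 CPM in astrocytes with a median of 404 CPM, from 235 to 407 CPM in neurons with a median of 337 CPM and from 19.8 to 53.0 CPM in oligodendrocytes with a median of 23.2 CPM. OPCs and astrocytes did not differ beyond their spread (exact sign-flip p = 0.230 over 9 libraries). The log2 fold change of *Pde7b* was 2.16 in fibroblasts, 1.75 in OPCs, 1.49 in astrocytes, 1.06 in neurons and -3.01 in oligodendrocytes (SE 0.23, edgeR adjusted p = 1.5e-19). *Pde8b* ranged from 131 to 973 CPM in endothelial cells with a median of 257 CPM, from 231 to 687 CPM in fibroblasts with a median of 284 CPM, from 123 to 269 CPM in astrocytes with a median of 174 CPM and from 5.31 to 57.5 CPM in oligodendrocytes with a median of 14.9 CPM, with log2 fold changes of 1.69, 2.02, 0.76 and -2.98. Endothelial cells and fibroblasts did not differ beyond their spread (exact sign-flip p = 0.50 over 5 libraries, where the smallest possible is 0.0625). Neurons (log2 fold change -0.16, adjusted p = 0.24) were not called for *Pde8b*.

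Neurons were then split by region, which asks whether the phosphodiesterases of PVT neurons differ from those of the nuclei around them. The habenula stood apart: it held the highest *Pde1a* and *Pde2a* and the lowest *Pde4b*, *Pde7b*, *Pde8b* and *Pde10a* of the 5 groups. Against the mean of the other groups, PVT neurons were called lower for *Pde1a* and *Pde1c* and higher for *Pde3a* and *Pde4b*. The other 5 genes were not called in PVT neurons. Their mean *Pde4b* level of 1029 CPM lay below IMD (1605 CPM), close to MD (1056 CPM) and above the habenula (126 CPM). Of 45 tests, 30 were called, 16 higher and 14 lower, where over all genes 24.4% of tests were called, 13.2% higher and 11.2% lower. In the habenula 2 members were called higher and 6 lower, where 21.8% of all genes were called higher and 20.2% lower. Habenular neurons were nearly all from 1 deposited cluster, which held 96.9% of them. In the split by single markers, which left 117 *Gad2* nuclei, BSTpr was no longer called for *Pde1a* (0.70), *Pde3a* (1.56), *Pde4d* (-0.42) and *Pde8b* (0.67), MD for *Pde3a* (-0.34), and the habenula for *Pde1c* (-0.45) and *Pde8b* (-0.37).

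**Figure D2:**
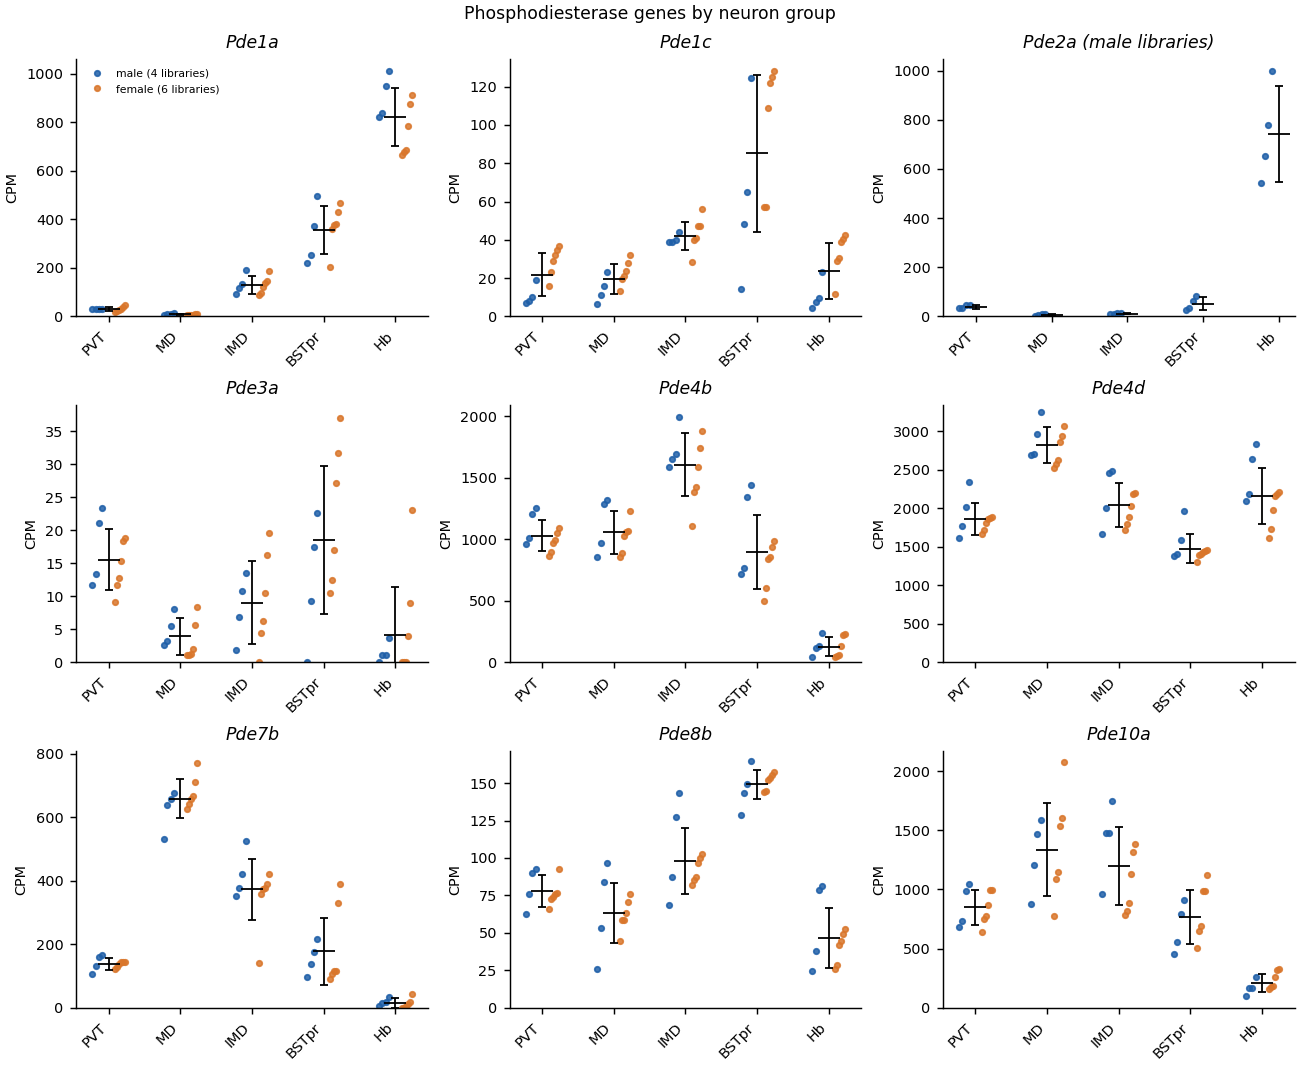
Levels of the 9 phosphodiesterase genes in the 5 regional groups of neurons, in CPM on linear axes that start at 0. Points are libraries (blue male, orange female), and the black bar and whiskers are the mean and SD over libraries, cut off at 0; *Pde2a* is shown for the male libraries alone. Habenular points are highest for *Pde1a* and *Pde2a* and lowest for *Pde4b*, *Pde7b* and *Pde10a*.

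*Pde1a* separated all 5 groups. It ranged in the habenula from 665 to 1009 CPM with a median of 829.1 CPM, in BSTpr from 205 to 494 CPM with a median of 375 CPM and in IMD from 88.9 to 191 CPM with a median of 127 CPM. In PVT neurons *Pde1a* ranged from 18.03 to 45.9 CPM with a median of 31.3 CPM and in MD from 4.16 to 14.1 CPM with a median of 7.71 CPM. The 5 ranges did not overlap, and each group differed from the next in the same direction in 10 of 10 libraries (exact sign-flip p = 0.0020, the smallest 10 pairs allow, adjusted p = 0.0044). The edgeR log2 fold change was 3.80 in the habenula (SE 0.10, adjusted p = 3.5e-38), 2.27 in BSTpr, -2.21 in PVT neurons (SE 0.13, adjusted p = 7.7e-22) and -4.26 in MD. When neurons were instead split by the UMIs of a single regional marker, *Pde1a* was 539 ± 123 CPM (SD, n = 10) in the 597 *Nwd2* nuclei, 48.9 ± 12.3 CPM in the 1376 *Adarb2* nuclei and 35.0 ± 9.13 CPM in the 3707 *C1ql3* nuclei. The mean of the *Adarb2* nuclei thus lay above that of the *C1ql3* nuclei, the reverse of the step from PVT to MD in the clusters.

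*Pde1c* was highest in BSTpr, a group that carries the GABA markers *Gad1* and *Gad2*. Its level there ranged from 14.5 to 128 CPM with a median of 87.1 CPM, and in PVT neurons from 7.07 to 37.0 CPM with a median of 21.3 CPM. The ranges overlapped, because male replicate 2 had 14.5 CPM in BSTpr, but BSTpr lay above the mean of the other groups in 10 of 10 libraries. The log2 fold change was 1.91 in BSTpr (SE 0.18, edgeR adjusted p = 2.4e-13) and -0.90 in PVT neurons (SE 0.16, adjusted p = 7.3e-06). PVT, habenular and MD neurons did not differ beyond their spread in *Pde1c* (exact sign-flip p = 0.895 and 0.662 for the neighbours).

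*Pde2a* had 997, 543, 778 and 653 CPM in the habenula of male replicates 1 to 4, 83.4, 32.2, 61.2 and 27.2 CPM in BSTpr, and 47.4, 32.2, 45.3 and 33.8 CPM in PVT neurons. It had 12.4, 9.12, 12.6 and 8.58 CPM in IMD and 10.4, 1.09, 7.90 and 6.08 CPM in MD. The habenula lay above all other groups without overlap, BSTpr and PVT neurons overlapped, and both lay above IMD and MD. In the edgeR fit, the log2 fold change of *Pde2a* in the male libraries was 5.17 in the habenula (SE 0.09, adjusted p = 1.6e-25), 0.01 in PVT neurons and -3.13 in MD. With 4 pairs the exact sign-flip test cannot go below p = 0.125, which each step but BSTpr against PVT reached. In nuclei thinned to 2000 UMIs, 70.0% ± 13.6 (SD, n = 4) of habenular nuclei held a *Pde2a* UMI, against 1.04% of MD nuclei, with 34 habenular and 32 MD nuclei under that depth left out. The same share for *Pde1a* was 73.3% ± 7.72 (n = 10) in the habenula and 1.16% in MD.

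*Pde3a* was higher in PVT neurons than in the neighbouring MD. It ranged in PVT neurons from 9.03 to 23.3 CPM with a median of 14.3 CPM, in BSTpr from 0 to 37.0 CPM with a median of 17.2 CPM and in MD from 1.07 to 8.33 CPM with a median of 2.95 CPM. PVT and MD did not overlap, and PVT neurons were higher than the mean of the other groups in 10 of 10 libraries. The log2 fold change was 1.18 in PVT neurons (SE 0.19, edgeR adjusted p = 4.5e-07) and 1.52 in BSTpr. BSTpr and PVT did not differ beyond their spread (exact sign-flip p = 0.914).

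*Pde10a* and *Pde7b* were highest in MD, the large thalamic nucleus that projects to the prefrontal cortex. *Pde10a* ranged in MD from 775 to 2075 CPM with a median of 1339 CPM, in PVT neurons from 641 to 1044 CPM with a median of 824 CPM and in the habenula from 104 to 329.9 CPM with a median of 177 CPM. The habenula lay below both without overlap, while MD and PVT overlapped. By edgeR, the log2 fold change of *Pde10a* was 1.06 in MD (SE 0.09, adjusted p = 3.2e-15), 0.89 in IMD, and -2.28 in the habenula (SE 0.12, adjusted p = 3.4e-23). MD and IMD did not differ beyond their spread (exact sign-flip p = 0.166).

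*Pde7b* ranged in MD from 532 to 771 CPM with a median of 657 CPM, in PVT neurons from 106 to 166 CPM with a median of 140.2 CPM and in the habenula from 0 to 44.9 CPM with a median of 13.3 CPM. These 3 ranges did not overlap. The edgeR log2 fold change of *Pde7b* was 2.61 in MD (SE 0.12, adjusted p = 1.3e-26), 1.59 in IMD and -4.05 in the habenula (SE 0.23, adjusted p = 1.4e-22). MD was made of 2 clusters, with mean *Pde7b* levels of 705 CPM and 440.4 CPM. The PVT group was made of 3 clusters, with mean *Pde7b* levels of 174, 91.5 and 21.8 CPM.

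*Pde4b* ranged in IMD from 1104 to 1996 CPM with a median of 1623 CPM, in PVT neurons from 863 to 1255 CPM with a median of 1001 CPM and in the habenula from 43.4 to 236 CPM with a median of 122 CPM. The habenula lay below all other groups without overlap. In the edgeR fit, the log2 fold change of *Pde4b* was 1.48 in IMD, 0.69 in PVT neurons and -3.25 in the habenula (SE 0.13, adjusted p = 8.2e-29). Thinned to 2000 UMIs, 15.4% of habenular nuclei and 80.1% of PVT nuclei held a *Pde4b* UMI.

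*Pde4d* and *Pde8b* varied least between the groups. *Pde4d* ran from a mean of 1475 ± 186 CPM in BSTpr to 2821 ± 235 CPM in MD (SD, n = 10), with log2 fold changes of -0.57 and 0.60 (-0.45 and 0.48 on total UMIs alone, no longer past the limit of 0.5), and its habenular mean of 2162 ± 364 CPM was the second highest. *Pde8b* ran from 46.6 ± 20.02 CPM in the habenula to 149 ± 9.77 CPM in BSTpr, with log2 fold changes of -0.90 and 1.11. Within each family the habenula thus had a low *Pde4b* beside a *Pde4d* that was not called there (log2 fold change 0.12), and a high *Pde1a* beside a *Pde1c* that was called lower (log2 fold change -0.74, adjusted p = 0.011).

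Within the PVT the question is whether its 5 neuronal subtypes carry different phosphodiesterases. Of the 9 genes, 6 were called in more than 1 subtype: *Pde1a* was highest in PVT4, *Pde2a* in PVT3, *Pde3a* in PVT2, and PVT3 had little *Pde7b* and *Pde8b*, while *Pde4d* was higher in PVT1 and PVT2. *Pde4b* and *Pde10a* were called in no subtype. In the split by single markers, with 96 *Npsr1* nuclei, the 5 PVT4 calls were lost (edgeR adjusted p of 0.800 or more), while *Pde2a*, *Pde3a*, *Pde7b* and *Pde8b* in PVT3 and *Pde2a*, *Pde3a*, *Pde4d* and *Pde7b* in PVT2 kept their calls. Of 45 tests, 22 were called, 13 higher and 9 lower, where over all genes 9.84% of tests were called, 5.17% higher and 4.67% lower.

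**Figure D3:**
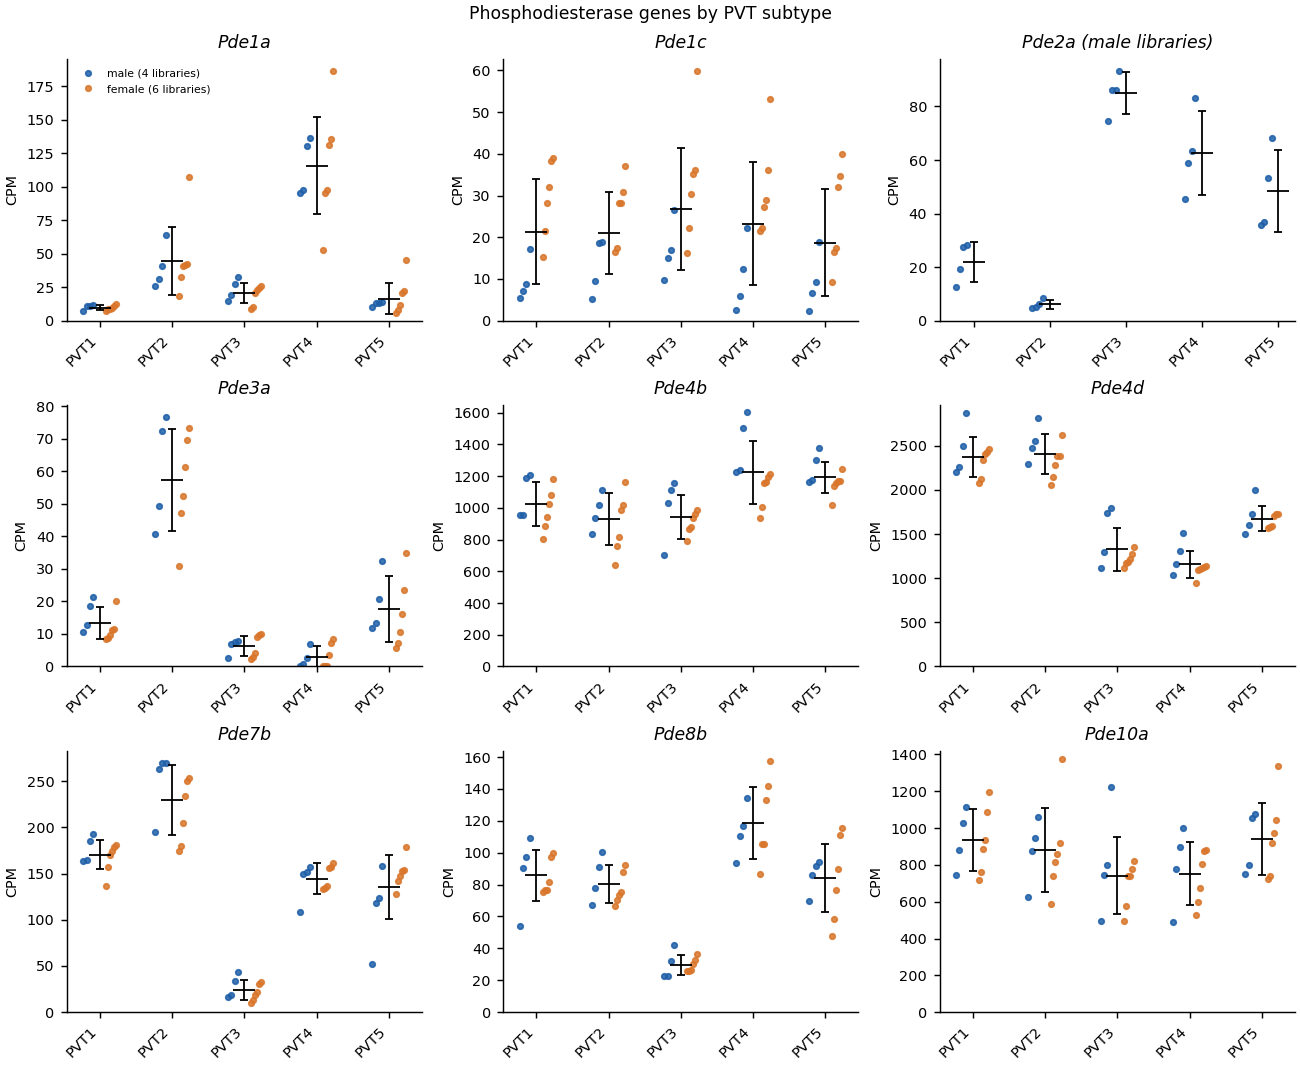
Levels of the 9 phosphodiesterase genes in the 5 PVT subtypes, in CPM on linear axes that start at 0. Points are libraries (blue male, orange female), and the black bar and whiskers are the mean and SD over libraries, cut off at 0; *Pde2a* is shown for the male libraries alone. *Pde1a* is highest in PVT4, *Pde2a* in PVT3 and *Pde3a* in PVT2, and *Pde7b* and *Pde8b* are lowest in PVT3.

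*Pde1a* ranged in PVT4 from 52.6 to 186 CPM with a median of 114 CPM, in PVT2 from 18.5 to 107 CPM with a median of 40.9 CPM and in PVT1 from 7.03 to 12.1 CPM with a median of 10.2 CPM. PVT4 overlapped with PVT2 across libraries but lay above it within each of the 10 libraries (exact sign-flip p = 0.0020, adjusted p = 0.010), and PVT1 lay below both without overlap. By edgeR, the log2 fold change was 2.42 in PVT4 (SE 0.10, adjusted p = 1.2e-37), 1.07 in PVT2, -1.37 in PVT5 and -1.74 in PVT1 (SE 0.12, adjusted p = 5.7e-23). The PVT4 and PVT2 calls were kept at a clustering resolution of 0.6 and with *Pde* genes in the clustering, but not in the split by single markers. For PVT4 that split is a weak test, with few nuclei and libraries. When *C1ql3* nuclei were split by single markers, *Pde1a* was 18.8 ± 18.9 CPM in the 852 *Col12a1* nuclei, 49.1 ± 21.3 CPM in the 834 *Cadps2* nuclei and 41.4 CPM over the only 2 libraries with 10 or more *Npsr1* nuclei, and in edgeR the fold turned to -0.87 for the *Col12a1* nuclei (adjusted p = 0.0049) and was not called for the *Npsr1* nuclei (0.26, adjusted p = 0.97).

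*Pde2a* had 86.0, 74.7, 93.2 and 86.1 CPM in PVT3 of male replicates 1 to 4, 83.0, 45.5, 63.4 and 58.7 CPM in PVT4, and 68.2, 35.8, 53.3 and 36.7 CPM in PVT5. It had 27.6, 12.7, 28.3 and 19.2 CPM in PVT1 and 4.70, 5.18, 8.58 and 6.21 CPM in PVT2. PVT3 lay above PVT5, PVT1 and PVT2 without overlap, and PVT2 lay below every other subtype. The edgeR log2 fold change in the male libraries was 1.73 in PVT3 (SE 0.10, adjusted p = 3.7e-20), 1.12 in PVT4, 0.63 in PVT5, -0.64 in PVT1 and -2.84 in PVT2 (SE 0.17, adjusted p = 2.5e-18). The order of *Pde2a* was the same in all 4 libraries, for which the exact sign-flip p is 0.125, the smallest possible. In the split by single markers *Pde2a* was 63.7 CPM in *Cadps2* nuclei and 10.8 CPM in *Col12a1* nuclei.

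*Pde3a* ranged in PVT2 from 30.8 to 76.6 CPM with a median of 56.8 CPM, in PVT5 from 5.82 to 35.0 CPM with a median of 14.6 CPM and in PVT4 from 0 to 8.36 CPM with a median of 1.65 CPM. In each of the 10 libraries PVT2 exceeded the other subtypes on average, and it lay above PVT4 without overlap. In the edgeR fit, the log2 fold change was 2.94 in PVT2 (SE 0.14, adjusted p = 4.2e-34), 0.82 in PVT5, -1.28 in PVT3 and -2.84 in PVT4 (SE 0.28, adjusted p = 4.7e-15). The study lists *Pde3a* among the marker genes of its PVT2, on these nuclei, so that the direction there is not independent; the gene was used here neither to cluster nor to name. In *Col12a1* nuclei *Pde3a* was 24.3 ± 10.9 CPM and in *Cadps2* nuclei 5.86 ± 5.25 CPM (SD, n = 10).

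*Pde7b* was nearly missing from PVT3. It ranged there from 9.74 to 43.7 CPM with a median of 20.4 CPM, against 174 to 270.1 CPM with a median of 242 CPM in PVT2 and 137 to 193 CPM with a median of 172 CPM in PVT1. PVT3 lay below every other subtype without overlap. By edgeR, the log2 fold change was -2.78 in PVT3 (SE 0.10, adjusted p = 3.5e-41), 1.26 in PVT2 and 0.76 in PVT1. *Cadps2* nuclei had 61.7 ± 16.4 CPM of *Pde7b* and *Col12a1* nuclei 186 ± 37.3 CPM.

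*Pde8b* shared the low level in PVT3, where it ranged from 22.4 to 42.3 CPM with a median of 28.2 CPM, and was highest in PVT4, where *Pde8b* ranged from 86.9 to 157 CPM with a median of 114 CPM. PVT3 lay below every other subtype without overlap. The edgeR log2 fold change of *Pde8b* was -1.69 in PVT3 (SE 0.09, adjusted p = 5.7e-30) and 0.88 in PVT4 (SE 0.07, adjusted p = 4.1e-19). PVT1, PVT5 and PVT2 did not differ beyond their spread from their neighbours (exact sign-flip p = 0.758 and 0.854).

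*Pde4d* fell into steps. It ranged in PVT2 from 2061 to 2819 CPM with a median of 2385 CPM, in PVT1 from 2083 to 2868 CPM with a median of 2372 CPM and in PVT4 from 942 to 1507 CPM with a median of 1124 CPM. PVT1 and PVT2 overlapped fully (exact sign-flip p = 0.584), and both lay above PVT3, PVT4 and PVT5 without overlap. In the edgeR fit, the log2 fold change was 0.60 in PVT2 (SE 0.04, adjusted p = 8.2e-26), 0.59 in PVT1 and -0.70 in PVT4; with a clustering resolution of 0.6 the last 2 were 0.49 and -0.22 and were not called. *Pde4b* means lay between 929 CPM in PVT2 and 1223 CPM in PVT4, and *Pde10a* means between 741 CPM in PVT3 and 942 CPM in PVT5; no fold change of either passed the limit of 0.5. *Pde1c* had a single call, 0.58 in PVT3 (SE 0.13, adjusted p = 1.8e-04, higher in 8 of 10 libraries), which was lost without male replicate 3, in the female libraries alone or without the library block and was -0.06 for *Cadps2* nuclei.

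**Figure D4:**
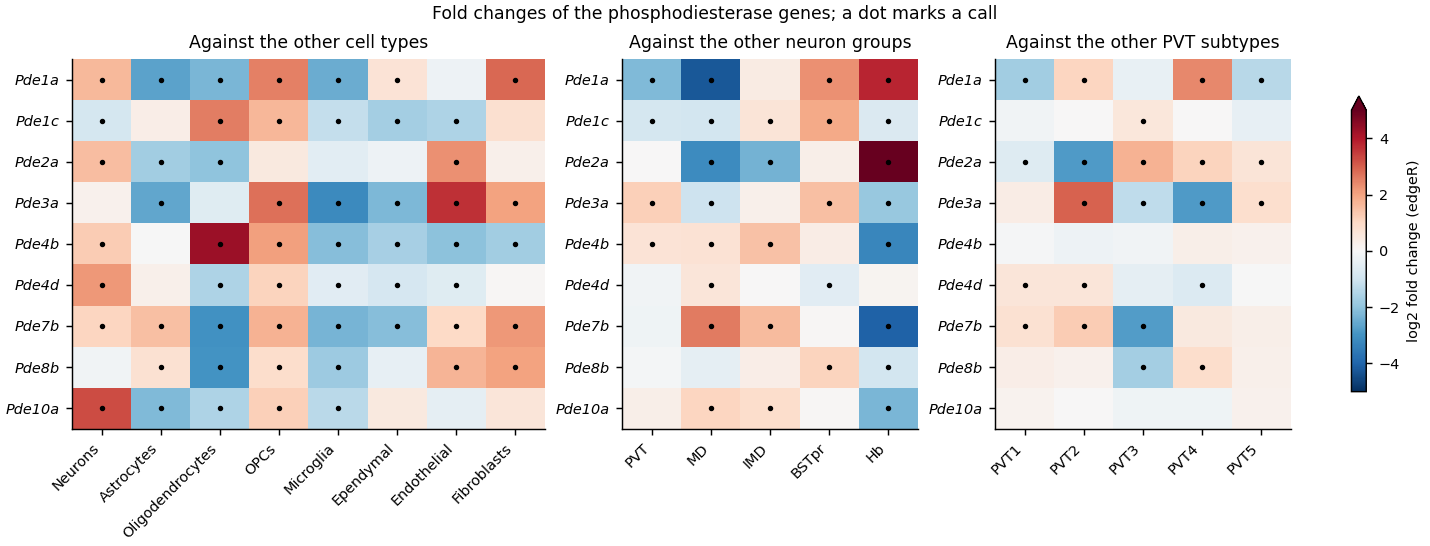
Log2 fold changes of the 9 genes (rows) in each cell type, neuron group and PVT subtype (columns) against the mean of the other classes of that panel, on a colour scale from -5 to 5 with red higher and blue lower; *Pde2a* is from the male libraries. A dot marks a call, and dots stand on 22 of the 45 cells of the PVT subtypes.

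The libraries labelled female and the male libraries were compared in PVT neurons, astrocytes and oligodendrocytes, each in its own edgeR fit. The sets differ in depth as well, with a median of 14332 UMIs per PVT nucleus in male and 7075.5 UMIs in female libraries. They also differ in the counting of genes given above, whose source the labels do not state. Sex, depth and the counting of genes cannot be told apart. Of 19 tests of a member, 2 were called, both in PVT neurons, where 15.6% of all genes were called. One is *Pde2a*, which follows the counting difference given above.

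The other is *Pde1c*. In PVT neurons it had 10.2, 7.97, 7.07 and 19.2 CPM in male replicates 1 to 4 and 23.4, 32.1, 37.0, 29.1, 15.8 and 34.5 CPM in female replicates 1 to 6. The sets overlapped through male replicate 4 and female replicate 5. The log2 difference, female minus male, was 1.31 (SE 0.31, edgeR adjusted p = 0.0083), with means of 28.6 ± 7.86 CPM in female and 11.1 ± 5.55 CPM in male libraries (SD). It was between 1.11 and 1.78 when 1 library was left out. *Pde1c* did not take that direction in oligodendrocytes, where it was most abundant (log2 difference -0.35, adjusted p = 0.31) and where 12.8% of all genes were called, nor was it called in astrocytes, where 14% of all genes were called (0.24, adjusted p = 0.56). The other 7 genes had log2 differences between -0.26 and -0.03 in PVT neurons and were not called.

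**Figure D5:**
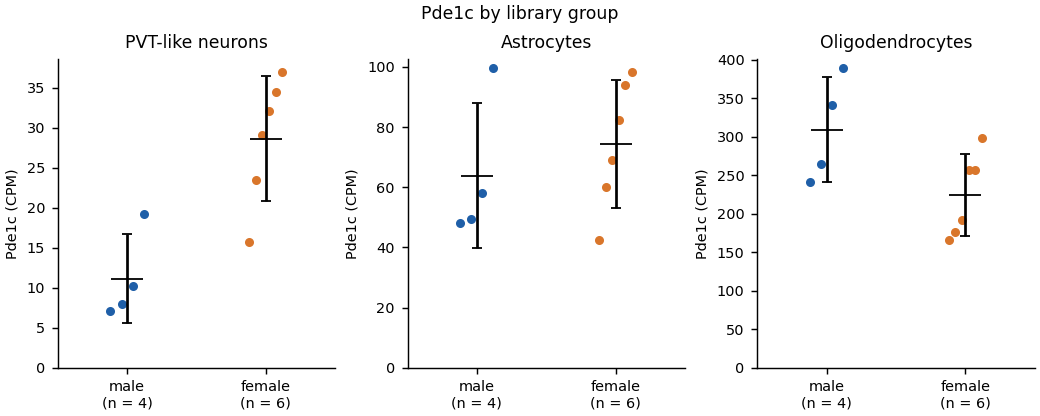
*Pde1c* level in CPM, on linear axes that start at 0, in PVT neurons, astrocytes and oligodendrocytes of the 4 male and 6 female libraries. Points are libraries, and bars and whiskers are the mean and SD; the female points lie mostly above the male ones in PVT neurons and mostly below them in oligodendrocytes.

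The remaining genes of cyclic nucleotide signalling were counted as 1 list of 64 genes: adenylyl and guanylyl cyclases that make cAMP and cGMP, kinases, exchange factors and channels that read them, anchoring proteins, and the other phosphodiesterases. Of 45 list genes tested across neuron groups, 10 (22.2%) were called higher and 19 (42.2%) lower in the habenula, with a median log2 fold change of -0.15, where over all genes 21.8% were called higher and 20.2% lower. In PVT neurons 7 (15.6%) were called higher and 8 (17.8%) lower, with a median of 0.02, where 10.8% of all genes were called higher and 6.79% lower. The largest habenular increases were in *Npr1*, a receptor cyclase for natriuretic peptides (log2 fold change 7.82), *Gucy1a1*, a subunit of the nitric oxide-sensitive cyclase (4.03), and *Pde11a* (3.59). The largest decreases there were in *Pde9a*, a cGMP-specific phosphodiesterase (-3.65), and the adenylyl cyclases *Adcy5* (-2.89) and *Adcy1* (-2.61). Against the mean of the other groups, list genes called higher in PVT neurons included the cGMP-dependent kinase *Prkg1* (1.28) and *Pde9a* (1.13). Those with the largest decreases were *Npr1* (-1.97), the neuronal nitric oxide synthase *Nos1* (-1.79) and *Pde5a* (-1.08). The habenula enters that mean. *Pde9a* had 86.4 CPM in PVT neurons, 103 CPM in IMD, 99.8 CPM in MD and 5.29 CPM in the habenula. *Npr1* had 0.407 CPM in PVT neurons, 0.045 CPM in IMD and 83.8 CPM in the habenula.

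In the other groups the list genes with the largest increases were *Nos1* (2.62), *Adcy2* (2.14) and *Adcy7* (2.04) in BSTpr, with 10 of 45 called higher and 4 lower, where 12.1% of all genes were called higher and 7.16% lower. In MD they were the cGMP-dependent kinase *Prkg2* (2.47), *Adcy1* (1.80) and *Pde9a* (1.37), with 11 higher and 13 lower, where 12.3% of all genes were higher and 15.5% lower. In IMD they were *Nos1* (1.96), *Pde9a* (1.42) and *Prkg2* (1.13), with 8 higher and 5 lower, where 8.71% of all genes were higher and 6.47% lower.

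Between the PVT subtypes 41 list genes were tested. PVT3 had 3 called higher, *Pde9a* (0.92), *Pde4a* (0.71) and *Hcn3* (0.60), and 6 lower, led by *Adcy2* (-3.20), *Gucy1a1* (-2.01) and the cAMP-activated exchange factor *Rapgef4* (-1.61), where 7.64% of all genes were called higher and 7.51% lower. PVT4 had 0 called higher and 5 lower, led by *Prkg2* (-1.82) and *Adcy2* (-1.49), against 5.42% and 4.87% of all genes. In PVT2 *Adcy2* (1.70), *Gucy1a1* (1.49) and *Adcy7* (1.16) led 5 called higher, and *Pde9a* (-1.13) was the 1 called lower, against 5.74% and 4.66% of all genes. PVT5 had 2 called higher, *Adcy2* (2.45) and *Prkg2* (0.87), and PVT1 had 5, led by *Prkg2* (1.14) and *Adcy1* (0.86), with 0 lower in both. Over all genes 3.19% were called higher and 3.31% lower in PVT5, and 3.86% and 3% in PVT1.

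As a description over 16 classes (7 non-neuronal types, 4 neuron groups outside the PVT and 5 PVT subtypes), the class means of log2 CPM were correlated between each member and 12765 genes outside the *Pde* family; the classes share libraries and depth, and no test was made. The nearest genes were *Armh4* (Pearson r = 0.786) and *Pld5* (0.783) for *Pde1a*, *Ebag9* (0.918) and *Degs1* (0.879) for *Pde1c*, *Cdca7l* (0.864) and *Map3k6* (0.767) for *Pde2a* in the male libraries, and *Abhd2* (0.770) and *Ccser2* (0.753) for *Pde3a*. They were *Kcna6* (0.951) and *Gm26673* (0.947) for *Pde4b*, *Ccdc92b* (0.940) and *Ptprs* (0.928) for *Pde4d*, and *Angpt1* (0.883) and *A830082K12Rik* (0.832) for *Pde7b*. *Pde8b* was most like *Rarg* (0.881) and *Ghr* (0.846), and *Pde10a* most like *Arhgap44* (0.961) and *Cacna1c* (0.956). Among the 8 members other than *Pde2a*, *Pde4d* and *Pde10a* were most alike (0.809), followed by *Pde7b* and *Pde8b* (0.755), and *Pde4b* and *Pde8b* were least alike (-0.292).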

How the data were processed

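Nuclei of 10 libraries were prepared as 10x Genomics 3' libraries. The authors aligned and counted the reads (Cell Ranger 6.1.1 and mm10 in the submitters' processing notes, while the study's methods name another Cell Ranger version) and deposited whole UMI counts per gene symbol and nucleus, not normalized. Mitochondrial percents of UMIs, at most 4.99, and the cell type names were computed by the authors and deposited as metadata, of which 21 further columns were not used. The authors removed doublets; scrublet called 153 nuclei (0.746%), which were kept.

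Neurons were clustered in Python 3.11.15 with numpy 2.4.6, scikit-learn 1.9.0 and igraph 0.11.9. The steps were Pearson residuals (overdispersion 100) of the 3000 most variable of 17342 genes, which had at least 20 UMIs and a log2 ratio under 3 between the library sets and excluded 23 *Pde* symbols, Harmony over libraries, 20 neighbours and Leiden clustering. Neurons took 6 components and a resolution of 0.3, and PVT neurons 18 components and 0.4, as in the study's methods. Names were given by the class whose fixed markers had the highest mean log2 fold, if at least 3 were higher and that mean was at least 0.2; this rule replaced a first one after its names had been seen. The first rule had left the largest PVT1 cluster, of 1248 nuclei, unnamed. Another PVT1 cluster, of 124 nuclei, had *Fosb*, *Btg2* and *Npas4* as its top genes. At a resolution of 0.6 a cluster of 169 nuclei led by *Fosb* and *Btg2* was named PVT4. The split by single markers asked for 1 UMI of 1 regional marker and of at most 1 subtype marker.

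UMI counts were summed per library and class, leaving out sums of under 10 nuclei, and edgeR 4.0.16 under R 4.3.3 fitted them by quasi-likelihood after filterByExpr and TMM, with the library as a block; Benjamini-Hochberg ran over all genes of a contrast. The script was tested on simulated data. Neighbouring levels were compared by exact two-sided sign-flip permutation of log2 CPM differences (prior count 2), adjusted over all pairs of a level. Libraries are labelled as biological replicates, and the study's methods speak of pools of mice, so p-values measure the spread between libraries made from such pools; shares carry counting error. Positions and sequences are from GENCODE vM21.

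Named genes were the 9 members, the genes of 1 fixed list of cyclic nucleotide signalling with the 3 largest called changes per class and direction, and the 2 nearest genes of each member. The members and lists were chosen with earlier results of these data known. Alternatives were other size factors, total UMIs without TMM, DESeq2, no filter, no library block, other limits on nuclei, other clusterings, and leaving out libraries.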

Additional observations from a re-analysis of the deposited data

Results flagged for a closer look

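In the 4 female libraries with endothelial sums, *Pde3a* had 702 CPM in replicate 6 and between 30.9 and 119.6 CPM in the others, a gap of 0.868 of the range. In the PVT2 sums of the male libraries, *Pde7b* had 195 CPM in replicate 3 and between 263 and 270.1 CPM in the other replicates, a gap of 0.910 of the range. Both were flagged as 1 sample far from the others; 46 groups of 4 to 6 libraries were looked at, and chance flags about 1 in 20.

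The contrast of microglia against the other cell types differed between the library sets for *Pde7b*. Its log2 fold change was -3.56 in female and -1.61 in male libraries, a difference of -1.98 (SE 0.48, edgeR interaction test, adjusted p = 0.042). *Pde7b* had 51.6, 46.8, 61.2 and 108 CPM in the microglia of male replicates 1 to 4 and 0, 12.2, 19.7, 34.8, 20.2 and 0 CPM in those of female replicates 1 to 6, and these ranges did not overlap. It was the 1 interaction called of 162 tested, of which 19 had an unadjusted p under 0.05.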

How the results depend on the processing

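Of the single calls, 30 of 55 across cell types, 19 of 30 across neuron groups, 9 of 22 across PVT subtypes and 2 of 2 between library sets kept their direction and their side of the threshold under every alternative run. Keeping only nuclei at or under 1% mitochondrial UMIs in the deposited metadata kept from 33.8% to 92.5% of the nuclei of a library and left OPCs, endothelial cells and fibroblasts with 2, 2 and 1 libraries. It left 34 calls across cell types, while calls over all genes fell from 42.3% to 22.8% of tests, with *Pde3a* (0.20) and *Pde4d* (0.038) in ependymal cells turned above 0. Splitting nuclei by single markers gave 19 calls of 36 tests across neuron groups, of which 18 were among the 30 main calls. Across PVT subtypes it gave 12 calls of 27 tests, of which only 8 were among the 22 main calls. Over all genes 18.4% and 4.59% of tests were called in that split, against 24.4% and 9.84% in the main fits. The split turned *Pde1a* in PVT2 (-0.87) and *Pde1c* in PVT3 (-0.056) below 0. The cause was not tested beyond the fewer tests. Without a filter on low counts 5 of 27 member tests were called between library sets, where 14.2% of tests over all genes were called. Without male replicate 2 it was 4 of 19, where the share over all genes was 25.6%, against 14.5% in the main fits. Leaving out 1 library gave 52 to 57 calls across cell types, 29 to 30 across neuron groups, 21 to 24 across PVT subtypes and 2 to 4 between library sets. DESeq2 called 55, 30, 22 and 3.

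Without the library as a replicate block, 50, 28 and 16 members were called across cell types, neuron groups and PVT subtypes. Replicate numbers did not pair the libraries (correlations of deviations from -0.10 to 0.04), and with the number as a replicate block 2 members were called between library sets. The first naming rule gave 22 calls across PVT subtypes, and scaling to total UMIs alone gave 55, 29 and 23 calls across cell types, neuron groups and PVT subtypes, of which 52, 28 and 22 were among the main ones, and 3 between library sets; both were chosen after seeing the data. That scaling moved the median log2 fold change of all genes by between -0.36 in neurons and 0.36 in fibroblasts, by -0.11 in MD and by 0.13 in BSTpr.

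Shares of nuclei with a UMI moved with the depth of thinning. Without thinning they were 88.2% for *Pde1a* and 91.2% for *Pde2a* in the habenula, 98.9% for *Pde4b* in oligodendrocytes, and 99.2% for *Pde4d* and 98.3% for *Pde10a* in MD. At 1000 UMIs they were 48.7%, 44.1%, 98.4%, 89.0% and 62.9% in that order, 16.8% for *Pde1c* in oligodendrocytes and 49.3% for *Pde7b* in fibroblasts. Sums of few endothelial cells and fibroblasts, and the low counts of *Pde3a* and *Pde1c*, limit the precision of their levels.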
